A study of Mus musculus with 20 samples.

Results

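The miR-26 family was followed through the mature arms mmu-miR-26a-5p, mmu-miR-26b-5p and mmu-miR-26b-3p, written without the species prefix from here on. These were taken by name from the miRNA count tables of both lines, so they are 3 of the 1063 miRNAs that the tables share, and all 3 passed the filter on low counts in the test. The series profiled small RNAs while mouse embryonic stem (ES) cells of a female line, PGK, and a male line, E14, were converted to epiblast stem cells, which are pluripotent in a primed state like that of the epiblast after implantation. At day 0 both lines grew in 2i medium, in which inhibitors of Mek and Gsk3 hold cells in the naive state, and they then moved to N2B27 medium with Activin A and Fgf2 on fibronectin. For each line and each of 2 differentiation experiments, called replicates 2 and 3 after the labels, there was 1 library at day 0, day 4 and day 10, 1 at a mid stage (days 19 to 23) and 1 at a late stage (days 27 to 30). The 20 libraries thus formed 10 groups of 2, with no genetic change or drug besides these media named for any group.

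With a single line per sex, an effect of sex and one of the line cannot be told apart. Every later stage was set against the same pair of day 0 libraries of its line. The day 0 library of replicate 3 carries, in both lines, a cell-type label for differentiating cells, although its title and its day label give day 0, by which it was grouped. Except in the tests of count ratios, the spread behind the p-values is that between the differentiation experiments of a line. In some groups it also holds a difference in day. Replicates 2 and 3 were taken on days 23 and 21 in mid PGK, 21 and 19 in mid E14, and 27 and 30 in late E14 cells. The ratio tests pool the libraries of both lines, so their spread also holds the difference between the lines. These are bulk samples, in which fewer cells of a type and less RNA per cell cannot be told apart.

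MicroRNAs repress messenger RNAs that pair with their seed, the bases near the 5′ end of the mature strand. The miR-26 hairpins lie in introns of genes for small C-terminal-domain phosphatases (Ctdsp genes), and from each hairpin a 5p and a 3p arm can be cut. In the mouse, miR-26a is abundant in many differentiated tissues and is known to repress Ezh2, the methyltransferase of Polycomb repressive complex 2, during muscle differentiation.

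The mature sequences are shown because the members that behaved differently below differ by so few bases. They come from RefSeq (GRCm38.p6), are written 5′ to 3′, and have the seed, bases 2 to 8, in capitals.
miR-26a-5p: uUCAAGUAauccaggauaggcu
miR-26b-5p: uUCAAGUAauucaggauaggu
miR-26b-3p: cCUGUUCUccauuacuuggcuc
miR-26a-2-3p: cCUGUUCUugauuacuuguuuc
miR-26a-1-3p: cCUAUUCUugguuacuugcacg

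The 5p arms share the seed UCAAGUA, and no other of the 853 miRNAs of the tables with a RefSeq sequence has it. Over the 21 bases that both have, miR-26a-5p and miR-26b-5p were identical at 19 and differed by C11U and C21U, with positions counted from 1 at the 5′ end and the miR-26a-5p base first. The seed of miR-26b-3p, CUGUUCU, was found in 1 other miRNA of the tables, miR-26a-2-3p. These 3p arms were identical at 18 of 22 bases and differed by C9U, C10G, G19U and C20U, with the miR-26b-3p base first.

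The hairpins show where the arms lie, with both arms of each in capitals. The mature miR-26a-5p is encoded in a pair of them, and its counts cannot be divided between these loci, whereas the 3p arms are specific to a hairpin.
Mir26a-1: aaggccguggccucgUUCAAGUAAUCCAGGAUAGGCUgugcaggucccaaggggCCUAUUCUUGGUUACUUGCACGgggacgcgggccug
Mir26a-2: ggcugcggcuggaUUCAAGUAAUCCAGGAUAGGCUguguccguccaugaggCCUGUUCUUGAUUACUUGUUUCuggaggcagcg
Mir26b: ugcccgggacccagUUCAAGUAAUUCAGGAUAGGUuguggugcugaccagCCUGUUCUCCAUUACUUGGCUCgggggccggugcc

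On GRCm38, Mir26a-1 lies at chr9:119031796-119031885 on the plus strand, in an intron of all 3 transcripts of Ctdspl that span it. Mir26a-2 lies at chr10:126995530-126995613 on the plus strand, in an intron of the 1 transcript of Ctdsp2 that spans it, while exons of 2 other transcripts of that gene overlap it. Mir26b lies at chr1:74394310-74394394 on the plus strand, in an intron of both transcripts of Ctdsp1 that span it.

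Libraries held 7.11 M (mega) to 18.0 M miRNA counts and 864 to 923 detected miRNAs each, and 813 miRNAs were tested. Levels are CPM, counts scaled to a common library total and by TMM factors, and log2 changes carry their SE from edgeR's quasi-likelihood test with p-values adjusted over all 813 miRNAs by the Benjamini-Hochberg method, called at 0.05. As a check of the labels, all 5 primed markers (miR-302a to d and miR-367) rose at every later stage in both lines, and their summed share of the counts was 1.28% to 3.27% in late cells against 0.0135% to 0.0495% at day 0. The 6 naive markers, of the miR-290 cluster, held 9.30% to 11.8% of the counts in late cells and 15.1% to 22.3% at day 0.

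miR-26a-5p was by far the most abundant member and fell steeply within 4 days of the change of medium, after which it stayed low. In PGK cells, replicates 2 and 3 in turn, it had 22589.6 and 29487 CPM at day 0, 15025 and 7039.5 CPM at day 4, 9685 and 7781 CPM at day 10, 10952.5 and 8081 CPM at the mid stage, and 8030.3 and 7706 CPM at the late stage. In E14 cells it had 42188 and 38878 CPM at day 0, 12193 and 8918 CPM at day 4, 13114 and 8426 CPM at day 10, 15075 and 12223 CPM at the mid stage, and 8986 and 12519 CPM at the late stage. In each line both day 0 libraries lay above all 8 later ones, without overlap. The highest of all 16 later libraries, at 15075 CPM, was still below the lowest day 0 library. Across the lines this held with TMM scaling but not with library totals. As a share of all counts, E14 replicate 2 at the mid stage (2.03%) lay above PGK replicate 2 at day 0 (1.89%). By abundance within its library miR-26a-5p ranked 5th to 9th at day 0, 22nd to 36th at day 4 and 13th to 27th at the late stage.

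The fall of miR-26a-5p passed the test in all 8 contrasts of a later stage with day 0 of the same line. Late PGK cells averaged 7868 ± 229 CPM and day 0 PGK cells 26038 ± 4877 CPM (SD, n = 2 each), a level 3.31 times lower (log2 change -1.73 ± 0.37, edgeR adjusted p = 0.00157). Late E14 cells averaged 10753 ± 2498 CPM and day 0 E14 cells 40533 ± 2340.2 CPM (SD, n = 2 each), a level 3.77 times lower (log2 change -1.91 ± 0.37, adjusted p = 0.00105). At day 4 the log2 change was already -1.24 ± 0.36 in PGK cells (adjusted p = 0.0142) and -1.94 ± 0.37 in E14 cells (adjusted p = 0.000992). At day 10 it was -1.58 in PGK and -1.91 in E14 cells, and at the mid stage -1.45 and -1.57, with adjusted p of at most 0.00499. miR-26a-5p was the only member called lower, in a background where the share of all tested miRNAs called lower was 14.6%, 18.8%, 19.3% and 19.4% in PGK cells at day 4, day 10, mid and late, and 18.3%, 17.0%, 18.5% and 21.2% in E14 cells. By size its late change was the 140th lowest of 813 in PGK and the 123rd lowest in E14 cells, so many other miRNAs fell further.

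Within each experiment miR-26a-5p was below its own day 0 library in all 16 pairs, with log2 changes from -2.23 to -0.59. The smallest of these was PGK replicate 2 at day 4, while PGK replicate 3 fell by 2.07 at the same stage. Of the 8 calls 2 depended on 1 library each. Without PGK replicate 3 at day 4 the day 4 change in PGK cells was -0.79 (adjusted p = 0.154), and without PGK replicate 2 at day 4 it was -2.05. Without PGK replicate 3 at the mid stage the mid change in PGK cells was -1.25 (adjusted p = 0.0607). Scaling by library totals in place of TMM raised the median change of all miRNAs by 0.52 and 0.41 at the PGK mid and late stages and by 0.70 and 0.66 at the E14 mid and late stages. The miR-26a-5p changes were then -0.93 and -1.32 in PGK and -0.865 and -1.25 in E14 cells, and they still passed the test.

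**Figure D1:**
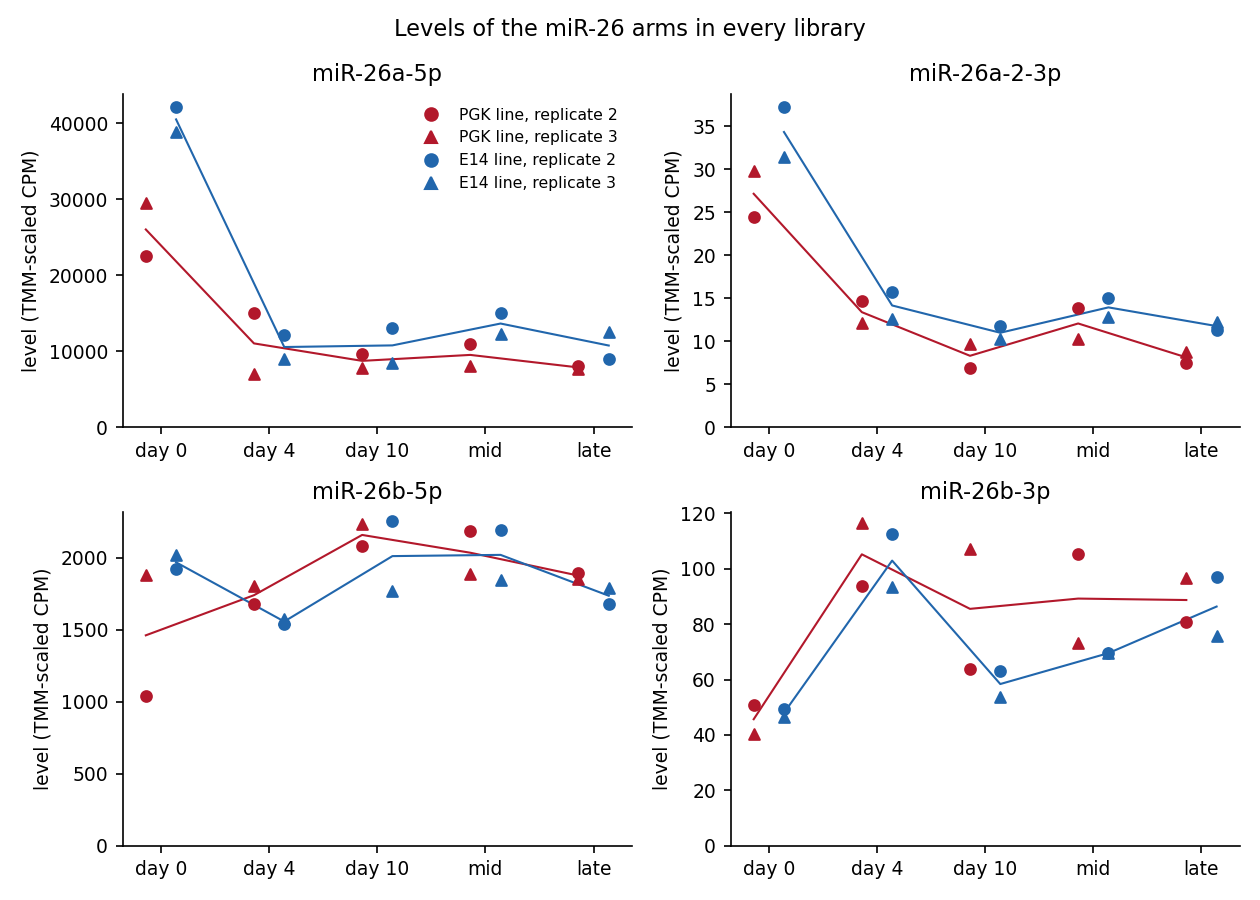
Level of each arm in every library, in TMM-scaled CPM on linear axes that start at 0, by stage (day 0 to late), with PGK points in red to the left of E14 points in blue, circles for replicate 2, triangles for replicate 3 and lines through the group means of 2 libraries. On the top row miR-26a-5p and miR-26a-2-3p drop between day 0 and day 4, miR-26b-5p stays between 1043 and 2258 CPM, and miR-26b-3p has its 4 lowest values at day 0.

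The 3p arm cut from Mir26a-2, which is specific to that hairpin, fell together with miR-26a-5p. miR-26a-2-3p had 6.88 to 15.7 CPM in the 16 later libraries, against 24.5 and 29.8 CPM at day 0 in PGK and 37.3 and 31.4 CPM at day 0 in E14 cells. The later values and the day 0 values did not overlap. Its change against day 0 passed the test in all 8 contrasts, with late log2 changes of -1.74 ± 0.35 in PGK cells (edgeR adjusted p = 0.00102) and -1.54 ± 0.34 in E14 cells (adjusted p = 0.003). The PGK day 4 call was lost without PGK replicate 3 at day 4 (-0.89, adjusted p = 0.166) and the E14 late call under scaling by library totals (-0.88, adjusted p = 0.0903). Counts of miR-26a-5p exceeded those of miR-26a-2-3p 797-fold to 1074-fold at the late stage and 923-fold to 1240-fold at day 0. miR-26a-1-3p, the 3p arm of the other hairpin, had 1 to 34 counts a library, and at day 0 no more than 6. It was above its own day 0 library in 4 of 4 pairs at each later stage. Its only single-line call was a rise at E14 day 10, on 34 and 9 counts against 6 and 1 at day 0 (log2 change 2.51 ± 0.82, adjusted p = 0.0297). Averaged over both lines it was also called higher at day 10 (2.11 ± 0.58, adjusted p = 0.00642) and at the mid stage (1.92 ± 0.58, adjusted p = 0.0117), but not at day 4 (1.40, adjusted p = 0.0572) or at the late stage (1.33, adjusted p = 0.0647).

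miR-26b-5p, which has the same seed as miR-26a-5p, did not follow it. In PGK cells, replicates 2 and 3 in turn, miR-26b-5p had 1043 and 1879.7 CPM at day 0, 1676 and 1804 CPM at day 4, 2083 and 2235 CPM at day 10, 2185 and 1885 CPM at the mid stage, and 1897 and 1856 CPM at the late stage. In E14 cells it had 1921 and 2016 CPM at day 0, 1538 and 1577 CPM at day 4, 2258 and 1766 CPM at day 10, 2196 and 1844 CPM at the mid stage, and 1680.4 and 1793 CPM at the late stage. PGK replicate 2 at day 0 was the lowest of all 20 libraries, and the later PGK libraries overlapped the range of the PGK day 0 pair. Apart from that library all values lay between 1538 and 2258 CPM.

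None of the 8 changes of miR-26b-5p against day 0 passed edgeR's test, none had an unadjusted p under 0.05, and DESeq2 called none. The late log2 change was 0.36 ± 0.30 in PGK cells (95% interval -0.28 to 1.003, adjusted p = 0.348) and -0.18 ± 0.30 in E14 cells (95% interval -0.82 to 0.46, adjusted p = 0.663). Averaged over both lines it was 0.09 ± 0.21 (95% interval -0.36 to 0.54, adjusted p = 0.751), an interval that does not reach the fall of miR-26a-5p. Under scaling by library totals, which shifts the median of all miRNAs upwards as given above, miR-26b-5p was called higher in 3 contrasts that TMM scaling does not call. These were the mid stage over both lines (0.87, adjusted p = 0.00779), the PGK mid stage (1.002, adjusted p = 0.032) and the late stage over both lines (0.62, adjusted p = 0.0416). Without PGK replicate 3 at day 0, the PGK change at day 10 was 0.91 (adjusted p = 0.0448).

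miR-26b-3p, the less abundant arm of the Mir26b hairpin, was higher after the change of medium. In PGK cells, replicates 2 and 3 in turn, it had 50.9 and 40.5 CPM at day 0, 93.7 and 116.7 CPM at day 4, 63.8 and 107.3 CPM at day 10, 105.4 and 73.1 CPM at the mid stage, and 80.8 and 96.7 CPM at the late stage. In E14 cells it had 49.4 and 46.5 CPM at day 0, 112.5 and 93.4 CPM at day 4, 63.1 and 53.7 CPM at day 10, 69.7 and 69.4 CPM at the mid stage, and 96.9 and 75.8 CPM at the late stage. The 16 later libraries, on 478 to 1237 counts each, all lay above the 4 day 0 libraries, which had 372 to 645 counts. The E14 libraries of day 10 came closest to day 0.

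Averaged over both lines, with 4 libraries a stage, miR-26b-3p rose at day 4 (log2 change 1.15 ± 0.25, a level 2.22 times higher, edgeR adjusted p = 0.00118), at the mid stage (0.75 ± 0.25, adjusted p = 0.0182) and at the late stage (0.90 ± 0.25, a level 1.87 times higher, adjusted p = 0.00601). At day 10 the averaged change was 0.59 ± 0.25 and missed the threshold (adjusted p = 0.0552), although it passed with DESeq2 (0.60, adjusted p = 0.0242), under scaling by library totals (0.86, adjusted p = 0.0344) and without PGK replicate 2 at day 10 (0.71, adjusted p = 0.0426). In these averaged contrasts 32.1%, 26.7%, 28.7% and 30.4% of all tested miRNAs were called higher at day 4, day 10, mid and late, and 24.4%, 25.0%, 26.2% and 28.2% lower, among them miR-26a-5p each time. The day 4 rise of miR-26b-3p over both lines kept its call under all 27 alternatives. The mid-stage rise was the least firm and missed the threshold in 10 of 27, each of them a fit without 1 library, with the lowest value without PGK replicate 3 at day 0 (0.54, adjusted p = 0.133). The late rise missed the threshold without PGK replicate 3 at day 0 (0.70, adjusted p = 0.0533) and without PGK replicate 3 at the late stage (0.71, adjusted p = 0.0556).

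Within single lines miR-26b-3p was called higher in 4 of 8 contrasts. The log2 change was 1.20 ± 0.35 at PGK day 4 (edgeR adjusted p = 0.0142), 0.97 ± 0.35 at the PGK mid stage (adjusted p = 0.0386), 0.96 ± 0.35 at the PGK late stage (adjusted p = 0.0385) and 1.10 ± 0.35 at E14 day 4 (adjusted p = 0.0198). The other 4 values were 0.91 at PGK day 10 (adjusted p = 0.0516, a value that passed in 4 of 28 alternatives, among them DESeq2 with 0.86 and adjusted p = 0.0264), 0.28 at E14 day 10 (adjusted p = 0.56), 0.54 at the E14 mid stage (adjusted p = 0.251) and 0.85 at the E14 late stage (adjusted p = 0.0655). miR-26b-3p was the only member called higher, and the share of all tested miRNAs called higher was 24.5%, 21.3%, 21.2% and 24.1% in PGK cells at day 4, day 10, mid and late, and 25.1%, 16.7%, 15.9% and 19.6% in E14 cells. Of the 28 alternatives for each, the threshold was missed in 18 at PGK day 4, in 22 at the PGK mid stage, in 21 at the PGK late stage and in 20 at E14 day 4, always with a positive change. At PGK day 4 the change lay between 0.67 and 1.22, the lowest value coming without PGK replicate 3 at day 0. Most fits without 1 library also took another library as the TMM reference. With the reference of the full fit the change was 1.04 to 1.21 at PGK day 4 and 1.08 to 1.10 at E14 day 4. With PGK replicate 3 at day 10 as reference it was 0.94 to 1.22 and 0.76 to 0.85. With PGK replicate 2 at the mid stage as reference it was 0.67 to 0.87 and 0.80 to 0.88.

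**Figure D2:**
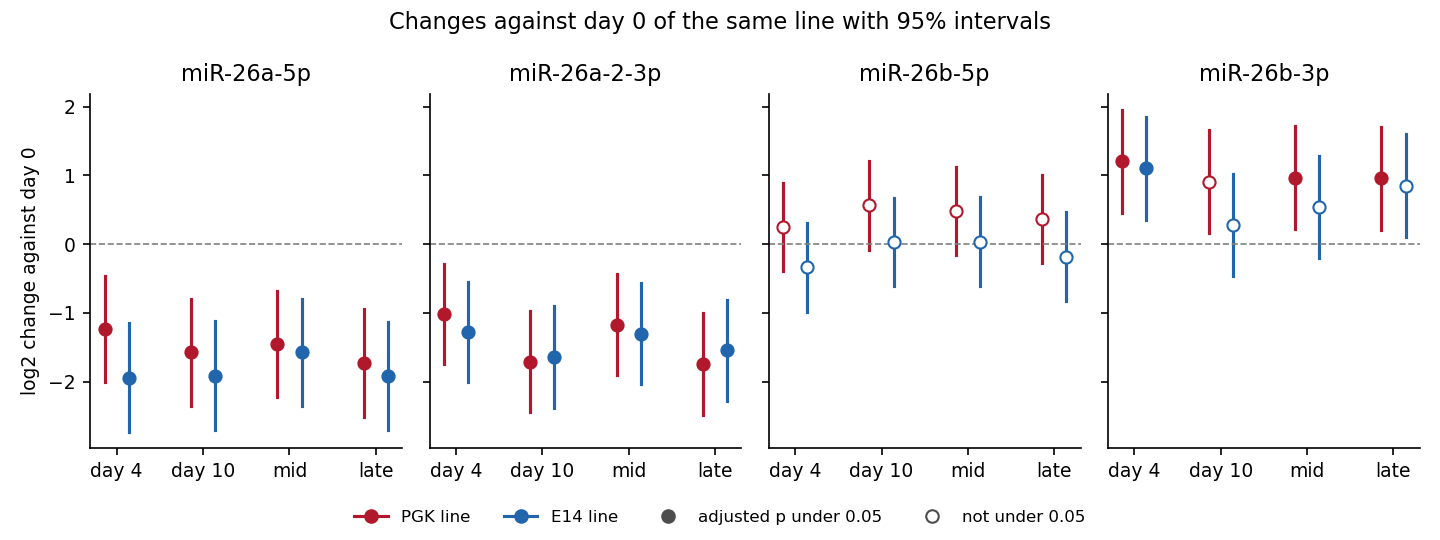
Log2 change of each arm against day 0 of the same line (y axis) by later stage (x axis), with PGK in red to the left of E14 in blue, bars for the 95% interval and filled circles where edgeR's adjusted p was under 0.05. All 8 circles of miR-26a-5p and of miR-26a-2-3p are filled and below 0, none of miR-26b-5p is filled, and 4 of 8 of miR-26b-3p are filled and above 0.

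The balance of the same-seed members shifted from miR-26a towards miR-26b. Ratios of counts within a library need no scaling between libraries. The count of miR-26a-5p was 4.23, 4.15, 5.35 and 6.98 times that of miR-26b-5p in the late libraries (PGK replicates 2 and 3, then E14 replicates 2 and 3), against 21.7, 15.7, 22.0 and 19.3 times at day 0 in the same order. The late and day 0 ratios did not overlap, and the ratio was 3.85 times lower at the late stage (log2 difference -1.94, lower in 4 of 4 pairs of line and experiment, exact two-sided permutation test p = 0.0286, adjusted p = 0.0381 over the 4 ratio tests). At day 4 the ratio was 3.90 to 8.96, already below every day 0 value (log2 difference -1.63, lower in 4 of 4 pairs, exact permutation p = 0.0286, adjusted p = 0.0381). With 4 libraries against 4, 0.0286 is the smallest p that this test can give. The test treats the 4 libraries of a stage as independent. Over all miRNAs, however, libraries with the same stage and replicate number deviated together across the lines (r = 0.13 to 0.55, median 0.39). Between groups that differ in both line and stage r was -0.15 to 0.37, with a median of 0.12, so the lowest same-stage values lie within that range. Exact sign flips within the 4 pairs of line and experiment gave p = 0.125 (adjusted p = 0.167) for both differences. That is the smallest p that 4 pairs allow, so neither passed the test in that form. The sign flips also treat the lines as independent, so they do not account for the deviation shared across the lines.

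Summed over both 5p arms, miRNAs with the seed UCAAGUA held 1.05% and 1.14% of the counts in late PGK cells and 1.43% and 1.92% in late E14 cells, against 1.98% and 2.67% at day 0 in PGK cells and 3.57% and 3.64% at day 0 in E14 cells. Within each line the lowest shares were at day 4, with 0.920% and 0.742% in PGK and 0.946% and 1.06% in E14 cells. miR-26b-5p supplied 12.5% to 19.4% of these counts at the late stage and 4.36% to 5.99% at day 0, so miR-26a-5p remained the larger part in every library. At the mid stage the summed share in E14 cells, 2.33% and 2.01%, lay above the lower of the PGK day 0 values.

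**Figure D3:**
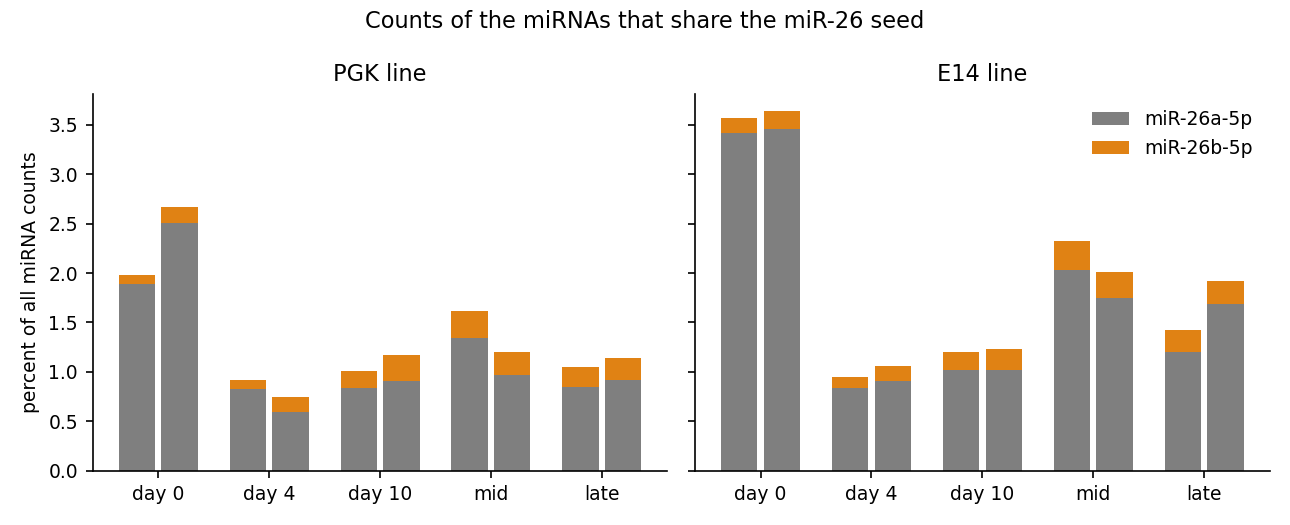
Percent of all miRNA counts (y axis) that came from miR-26a-5p (grey) and miR-26b-5p (orange, stacked on top) in each library, with PGK on the left and E14 on the right, stages in order and replicates 2 and 3 side by side. Within each line the bars are highest at day 0, 1.98% and 2.67% in PGK and 3.57% and 3.64% in E14 cells, and lowest at day 4, and in every bar the grey part is the larger.

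The arms of Mir26b also moved relative to each other. The count of miR-26b-5p was 17.9, 15.5, 13.7 and 16.9 times that of miR-26b-3p at day 4 (PGK replicates 2 and 3, then E14 replicates 2 and 3), against 20.5, 46.5, 38.9 and 43.4 times at day 0. The day 4 and day 0 ratios did not overlap, although PGK replicate 2 at day 0 came close to the day 4 values (log2 difference -1.16, lower in 4 of 4 pairs, exact two-sided permutation p = 0.0286, adjusted p = 0.0381, and exact paired sign-flip p = 0.125). At the late stage the ratio was 17.3 to 23.7 and overlapped day 0 (log2 difference -0.78, lower in 3 of 4 pairs, exact permutation p = 0.0857, adjusted p = 0.0857). Between these stages it was 20.8 to 35.8 at day 10 and 20.7 to 31.5 at the mid stage. The 3p arms of Mir26b and Mir26a-2, which share a seed, moved apart more widely. miR-26b-3p had 6.20 to 11.05 times the counts of miR-26a-2-3p at the late stage and 1.33 to 2.08 times at day 0.

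**Figure D4:**
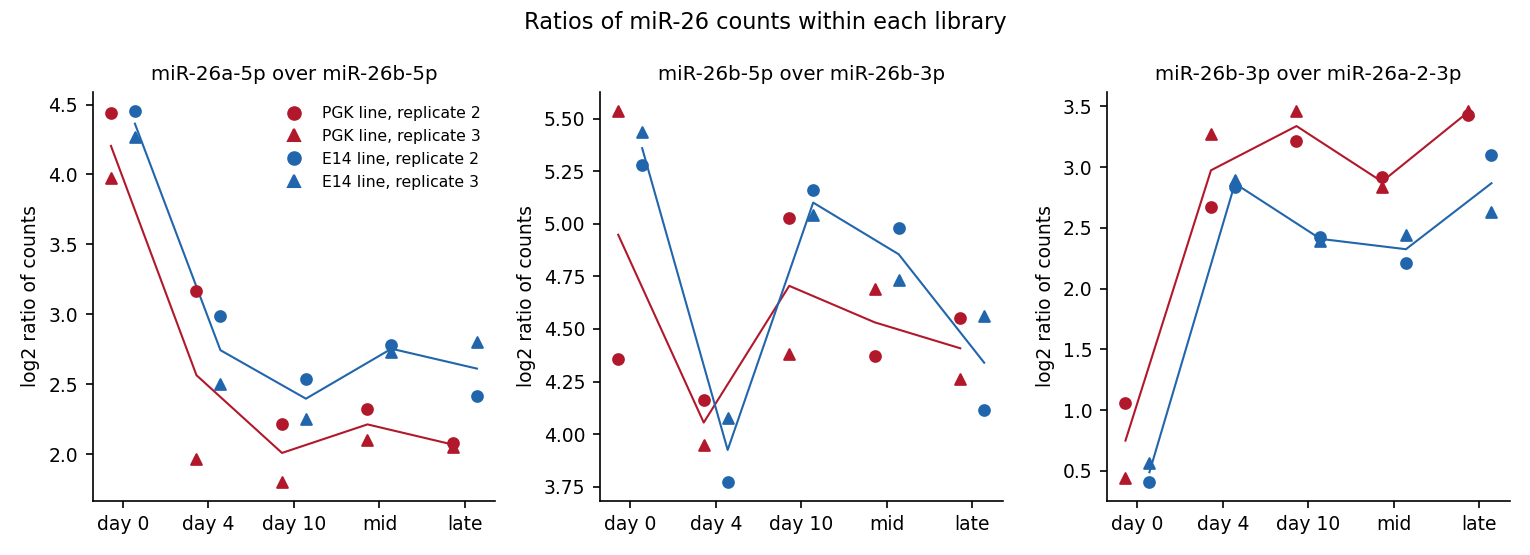
Log2 ratio of counts within each library (y axis) by stage for miR-26a-5p over miR-26b-5p, miR-26b-5p over miR-26b-3p and miR-26b-3p over miR-26a-2-3p, with PGK in red to the left of E14 in blue, circles for replicate 2, triangles for replicate 3 and lines through the group means. In the left panel all 16 later points lie below the 4 day 0 points, in the middle panel the day 4 points, at ratios of 13.7 to 17.9, all lie below day 0, and in the right panel all later points lie above day 0.

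After day 4 no further step passed the test. Of 18 steps between neighbouring stages (day 10 against day 4, mid against day 10, late against mid, for 3 members in 2 lines) edgeR and DESeq2 called 0, and 1 had an unadjusted p under 0.05. Over all tested miRNAs these steps called 6.52%, 0.369% and 0% in PGK cells and 8.12%, 0.246% and 0% in E14 cells. For miR-26a-5p the 6 steps lay between -0.34 and 0.34 on the log2 scale, with 95% intervals reaching -1.11 and 1.10. Within a line the levels of miR-26a-5p thus put day 0 first, and no step between neighbouring later stages was resolved. Later stages that are not neighbours were not compared by a test. The course after day 4 also depended on scaling. As a share of all counts, replicates 2 and 3 in turn, miR-26a-5p had 0.840% and 0.904% at E14 day 4 and 2.03% and 1.745% at E14 mid. In PGK cells the shares were 0.828% and 0.590% at day 4 and 1.344% and 0.970% at the mid stage. The order of the members themselves was the same in every library, with miR-26a-5p highest, then miR-26b-5p, then miR-26b-3p.

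The lines gave similar directions for miR-26a-5p and miR-26b-3p. Comparing PGK with E14 cells at single stages, edgeR and DESeq2 called 0 of 15 member differences and none had an unadjusted p under 0.05, where 8.73%, 5.04%, 0%, 0% and 0% of all tested miRNAs were called in either direction at day 0, day 4, day 10, mid and late. At day 0 miR-26a-5p averaged 26038 ± 4877 CPM in PGK and 40533 ± 2340.2 CPM in E14 cells (SD, n = 2 each), without overlap (log2 difference -0.64 ± 0.36, adjusted p = 0.356). The lone call among the alternatives was a lower miR-26b-5p in PGK cells at day 0 without PGK replicate 3 of that stage (-1.08, adjusted p = 0.0479), which leaves the low PGK replicate 2 by itself. Averaged over the 5 stages, the difference of PGK from E14 was -0.37 ± 0.16 for miR-26a-5p (adjusted p = 0.128), -0.01 ± 0.13 for miR-26b-5p (adjusted p = 0.998) and 0.18 ± 0.16 for miR-26b-3p (adjusted p = 0.488), and 18.5% of all tested miRNAs were called. The lower miR-26a-5p in PGK cells did pass 0.05 in 20 of 26 alternatives, among them RLE scaling (-0.52, adjusted p = 0.0368) and DESeq2 (-0.52, adjusted p = 0.0185).

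Whether the lines differed in their change was tested as a contrast of its own. Of 12 member interactions (the PGK change minus the E14 change, at 4 stages), edgeR and DESeq2 called 0 and none had an unadjusted p under 0.05. Among all tested miRNAs 0%, 0%, 0% and 0.369% were called at day 4, day 10, mid and late. At the late stage the difference in change was 0.19 ± 0.51 for miR-26a-5p (95% interval -0.89 to 1.26), 0.54 ± 0.43 for miR-26b-5p (-0.37 to 1.45) and 0.11 ± 0.49 for miR-26b-3p (-0.94 to 1.16).

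Other miRNAs followed miR-26a-5p more closely than miR-26b-5p did. Over the 10 group means of log2 CPM, which share the scaling of the libraries, miR-26a-5p correlated with miR-26a-2-3p at r = 0.96, with miR-26b-5p at r = -0.27 and with miR-26b-3p at r = -0.81. Among 329 other miRNAs with a mean of at least 50 CPM, the 5 most like miR-26a-5p were miR-1839-5p, miR-15a-5p and miR-93-5p (r = 0.96 each), miR-101a-3p (r = 0.95) and miR-30b-5p (r = 0.94). For miR-26b-5p the closest were miR-28a-5p (r = 0.72), miR-28a-3p and miR-3099-3p (r = 0.71 each), miR-27a-3p (r = 0.62) and miR-23a-3p (r = 0.59). The 2 arms of Mir26b correlated with each other at r = 0.10.

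miR-26a is one of several miRNAs known to repress Ezh2, and some of the others fell too. Of the miR-101 family, known as repressors of EZH2 in human cancer cells, 2 of 3 members were called lower at the PGK late stage and 3 of 3 at the E14 late stage, where 19.4% and 21.2% of all tested miRNAs were called lower. miR-101a-3p had late log2 changes of -2.42 ± 0.34 in PGK cells (edgeR adjusted p = 4.71e-05) and -2.47 ± 0.34 in E14 cells (adjusted p = 5.94e-05). miR-101b-3p had -0.72 ± 0.34 in PGK cells (adjusted p = 0.096) and -1.32 ± 0.34 in E14 cells (adjusted p = 0.00731). Of 5 other miRNAs reported to target Ezh2, 1 rose and 0 fell by edgeR at the PGK late stage, and 1 rose and 2 fell at the E14 late stage, with median log2 changes of -0.30 and -0.81 beside 0.01 and 0.05 for all tested miRNAs. The most abundant of these, miR-138-5p, had late log2 changes of -0.30 in PGK cells (adjusted p = 0.54) and -0.81 in E14 cells (adjusted p = 0.0968).

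Of the let-7, miR-30 and miR-29 families, which are abundant in differentiated cells, the let-7 guides, which oppose stem cell programmes in many tissues, had the largest median late changes. Of 9 let-7 guides, 8 were called lower at the PGK late stage and 6 at the E14 late stage, with median log2 changes of -4.33 and -3.85, where 19.4% and 21.2% of all tested miRNAs were called lower. let-7f-5p, the most abundant, had late log2 changes of -4.97 ± 0.40 and -3.85 ± 0.38 (edgeR adjusted p at most 4.46e-06), larger falls than that of miR-26a-5p. Of 5 miR-30 guides 2 were called lower at the late stage in each line and none higher, and the most abundant, miR-30e-5p, had -0.19 in PGK (adjusted p = 0.635) and -0.33 in E14 cells (adjusted p = 0.411). Of 3 miR-29 guides 1 was called lower at the PGK late stage, miR-29c-3p with -1.21 ± 0.43 (adjusted p = 0.0333), and 0 by edgeR at the E14 late stage, where miR-29a-3p had -1.06 ± 0.69 (adjusted p = 0.24), so the miR-29 count was near the share of all tested miRNAs.

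Markers of other cell types were read because miR-26a is also abundant outside pluripotent cells. The 7 mesenchymal markers together held 0.305% to 0.739% of the counts at day 0, 0.0373% to 0.124% at day 4 and 0.173% to 0.468% at the late stage, and miR-214-3p was at 0 in all day 0 and day 4 libraries. In late PGK cells 5 of these 7 were called higher and 2 lower, and in late E14 cells 2 higher and 0 lower by edgeR. The 5 blood markers held 0.000851% to 0.00218% at the late stage and 0.00713% to 0.0571% at day 0, with 2 of 4 tested called lower in each line at the late stage and none of the 5 at 0 throughout a group. The 4 endoderm markers, 1 of them miR-375-3p, which is also typical of endocrine cells, held 0.290% to 1.36% at the late stage and 0.0993% to 0.294% at day 0, with 1 called higher and 2 lower of 3 tested in each line, and miR-122-5p at 0 throughout 5 of the 10 groups (both lines at day 4, E14 at day 10, PGK at the late stage and PGK at day 0). The 3 neural markers held 0.0901% to 0.211% at the late stage and 0.0605% to 0.0794% at day 0, and in late E14 cells 1 was called higher and 1 lower, with no call in late PGK cells. For all tested miRNAs the late share called was 24.1% higher and 19.4% lower in PGK cells, and 19.6% higher and 21.2% lower in E14 cells. The part of other cell types in the miR-26 changes was not tested.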

How the data were processed

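Small RNA libraries from Trizol-recovered, DNase-treated RNA of 20 samples were analysed from the deposited tables. The authors deposited raw counts per miRNA and library in a table per line, per the labels, and these counts were used. Normalized and variance-stabilized tables were not used. The submitters' processing notes name CASAVA 1.8.2, GRCm38, mm10 and DESeq2. The mapping tool is not given in the sources used here, nor is the reference set of miRNAs or the treatment of ambiguous reads. Reads may therefore be shared between miR-26a-5p and miR-26b-5p, which differ at 2 of 21 bases.

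Counts of the 1063 shared miRNAs (1109 in the female and 1091 in the male table) entered 1 edgeR model (version 4.0.16 in R 4.3.3) with a coefficient for every group of line and stage and TMM scaling. The filterByExpr step left 813 miRNAs with 99.997% of the counts, and the model had 10 residual degrees of freedom and TMM factors of 0.551 to 1.43. Contrasts were tested with the quasi-likelihood F test and Benjamini-Hochberg adjustment per contrast at 0.05, and an SE is the size of the log2 change over the root of its F. Count ratios were compared with exact permutation tests over libraries (scipy 1.17.1). Depth was 7.11 to 18.0 M counts per library, where 3 counts are 0.166 to 0.422 CPM. No molecular identifiers are named, so these floors allow for counting error alone.

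Results were recomputed with RLE scaling, with library totals, without the filter, with a filter at 10 CPM, with DESeq2 1.42.0, with a replicate block, for each line alone, and without each library in turn. A library then left alone in its group is taken to vary as the other groups do. The edgeR test was checked on simulated counts for the late PGK contrast only, and the permutation test on a simulated shift. Sequences and positions are from RefSeq on GRCm38.p6 and host genes from GENCODE M21, matched by name. All 3 members are named; miRNAs with a like pattern are the 5 with the highest correlation, and lists are given with up to 2 of their most abundant members. The members and lists were chosen with earlier results of these data known.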

Additional observations from a re-analysis of the deposited data

Results flagged for a closer look

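Levels of the 3 members were checked for a library standing apart from the other 3 of its stage, over both lines. So were the ratios of miR-26a-5p to miR-26b-5p and of miR-26b-5p to miR-26b-3p. The other arms and ratios were not checked. Of 25 such groups of 4 libraries 3 held one, where chance gives about 1 in 20. The log2 CPM of miR-26b-5p at day 0 was 10.03 in PGK replicate 2, below the other 3 day 0 libraries, by a gap that made up 0.894 of the whole range. This library also gave the lowest day 0 ratio of miR-26b-5p to miR-26b-3p. The log2 CPM of miR-26b-3p at the mid stage was 6.72 in PGK replicate 2, above the other 3, with a gap of 0.878 of the range. The log2 ratio of miR-26b-5p to miR-26b-3p at day 10 was 4.38 in PGK replicate 3, below the other 3, with a gap of 0.831 of the range.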

How the results depend on the processing

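The miR-26a-5p change against day 0 kept its direction under every alternative run and its call in all contrasts except PGK day 4 and PGK mid, each lost without 1 library (-0.79 and -1.25). Leaving out libraries gave -2.05 to -0.79 at PGK day 4. Relative to these, miR-26b results moved more. At PGK day 4 the miR-26b-3p rise missed the threshold with library totals (0.96), no filter (1.01), the 10 CPM filter (0.87) and the line alone (0.83), and leave-one-out values were 0.67 to 1.22. At PGK late it missed it with RLE scaling (0.87), no filter (0.92) and the line alone (0.86), leave-one-out 0.68 to 1.15. At E14 day 4 it missed it with RLE (0.86), library totals (1.08), no filter (0.91) and the line alone (0.79), leave-one-out 0.76 to 1.09. At E14 late it passed with RLE (0.92), library totals (1.51), the 10 CPM filter (0.93) and DESeq2 (0.92). Over both lines its leave-one-out range was 0.54 to 0.89 at mid, where 10 of 27 alternatives missed the threshold, and 0.70 to 1.01 at late.

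Values of miR-26b-5p near 0 changed sign. At PGK day 4 they were -0.0196 with library totals, -0.0433 with the 10 CPM filter and -0.0906 with the line alone, leave-one-out -0.28 to 0.35. With E14 alone they were -0.026 at day 10 (leave-one-out -0.13 to 0.0784) and -0.0241 at mid (leave-one-out -0.21 to 0.10). At E14 late library totals gave 0.48. Over both lines library totals gave 0.87 at mid and 0.62 at late, both called, with late leave-one-out -0.0714 to 0.20. The cause was not tested.

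The mean line difference of miR-26a-5p passed with RLE (-0.52), library totals (-0.52), the 10 CPM filter (-0.51) and DESeq2 (-0.52), leave-one-out -0.64 to -0.28. For miR-26b-5p it was -0.29 to 0.0139 and for miR-26b-3p -0.0923 to 0.23 by leave-one-out. One single-stage line difference was called without PGK replicate 3 at day 0, against 0 with all libraries. Late interactions changed sign for miR-26a-5p with library totals (-0.064; leave-one-out -0.0181 to 0.48), and for miR-26b-3p with RLE (-0.0528), library totals (-0.13), no filter (-0.0063) and DESeq2 (-0.0527; leave-one-out -0.0317 to 0.35). Much of the leave-one-out movement goes with the library that TMM takes as its reference: the line difference of miR-26a-5p was -0.41 to -0.28 in the 5 fits that took PGK replicate 3 at day 0, the one used with all libraries, and -0.64 to -0.48 in the 16 fits that took another.

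The replicate block changed no call of edgeR's test: the late miR-26a-5p change was -1.75 in PGK and -1.89 in E14 cells, and the miR-26b-3p change over both lines 1.15 at day 4. By the labels, a replicate number marks a differentiation experiment of a line, so its libraries are paired by design. Between stages of a line, deviations from the group means correlated above 0.1 for 4 of 10 pairs of E14 stages and 5 of 10 of PGK stages. These correlations over all miRNAs cannot show whether the pairing matters for the miR-26 arms. Across the lines, deviations at the same stage correlated at 0.13 to 0.55, and those at different stages at -0.15 to 0.37. Exact permutation tests of the ratios with a replicate block, by sign flips within line and experiment, kept -1.94, -1.63 and -1.16 but lost the calls, since they cannot go below p = 0.125 with 4 pairs. Leaving out a library cannot reach an exact p of 0.05 either, with 3 libraries against 4 in the two-sided form used, which doubles the one-sided p. The differences were then -2.10 to -1.85, -1.80 to -1.40 and -1.43 to -1.04. Depth did not limit the members, at 372 counts or more a library, but did limit miR-26a-1-3p.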
